A study of Mus musculus with 6 samples.

Results

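The insulin, PI3K, Akt, mTOR and AMPK signaling genes described here are 37 genes chosen by symbol, and they are measured by 106 of the 45077 probe sets of the array. The array names 22527 gene symbols in all. For each gene the probe set with the highest mean over the 3 groups was used, and the other probe sets were kept to show how far they differed. 27 of the 37 genes are measured by several probe sets and 10 by a single one. One *Pik3r2* probe set also carries the symbol *Ifi30*.

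The data are cerebral cortex RNA of male mice, 6 samples hybridised to 1 array each (Affymetrix Mouse Genome 430 PM array strips). The labels give an age of 16 weeks, which the paper states for the SAMP8 mice it used. Its methods then list 1 week of acclimatization, the administration and the behavioral testing before the brains were taken. The 3 groups hold 2 samples each, which the paper calls biological samples and which are read here as single mice. SAMP8, an inbred strain with accelerated senescence, was given either STEE, an ethanol extract of sugarcane tops, by mouth at 20 mg/kg (STEE-fed SAMP8) or an equal volume of water (SAMP8 control). SAMR1, the resistant strain that ages normally, was given water. Administration lasted 30 days and went on during 8 days of behavioral testing. All mice were housed singly, and the methods state that BrdU, a thymidine analog, was given in the drinking water. The labels name no transgene, and SAMR1 differs from SAMP8 across the genome, so that a difference in the sequence under a probe cannot be told apart from a difference in RNA. SAMR1 received no STEE, so that the response to STEE was measured in SAMP8 alone.

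The values are log2 signal averaged over the 2 mice of a group by the authors. No value per mouse was analysed here, and so no difference below has a replicate check, an SD or a p-value. A gene is described as higher or lower in a group when the group means differ by at least 0.2 on the log2 scale, which is 1.15-fold. This line was chosen for description, and smaller differences are given as values. Because the means are rounded to 2 decimals, a gene at 0.20 or 0.19 lies on the line within rounding.

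Insulin and IGF-1 bind receptor tyrosine kinases, which use the IRS adaptors to bring PI3K to the membrane, where its lipid product recruits Akt and the Akt-activating kinase PDK1. Akt switches off the TSC complex and so frees Rheb to activate mTOR complex 1, which drives translation through S6 kinase and the eIF4E-binding proteins. Akt also keeps FoxO transcription factors out of the nucleus. AMPK, the sensor of low cellular energy, acts against mTOR complex 1, as do the stress-induced proteins REDD1 and sestrin 1. In the brain the pathway is known for its part in synaptic plasticity, neuronal survival and glucose handling, and most of its control is by phosphorylation, which RNA does not show.

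The promoters of the genes on which the comparisons turn are shown first, since each comparison returns to them. They are the 250 bases before the RefSeq transcription start in the GRCm38.p6 assembly of C57BL/6J, printed 5′ to 3′ on the strand of the gene, and not the sequence of SAMP8 or SAMR1. Capitals mark 4 motifs searched on both strands, which are the E-box CACGTG, a FoxO element GTAAACA, the GC box GGGCGG and the CCAAT box CCAAT. A motif on the other strand appears in its reverse complement. *Igf1*, the growth factor, starts after chr10:87860861-87861110 on the plus strand. *Ddit4*, which encodes REDD1, lies on the minus strand and its window is chr10:59951771-59952020. *Eif4e*, the cap-binding translation factor, has a window at chr3:138527018-138527267 on the plus strand. *Foxo1* has its window at chr3:52268087-52268336 on the plus strand. *Irs2*, the adaptor, has its window at chr8:11008930-11009179 on the minus strand.
Igf1: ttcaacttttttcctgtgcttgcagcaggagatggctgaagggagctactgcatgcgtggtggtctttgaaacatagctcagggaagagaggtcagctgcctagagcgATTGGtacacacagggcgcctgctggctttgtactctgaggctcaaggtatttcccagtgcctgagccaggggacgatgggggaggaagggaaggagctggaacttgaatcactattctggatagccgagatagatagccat
Ddit4: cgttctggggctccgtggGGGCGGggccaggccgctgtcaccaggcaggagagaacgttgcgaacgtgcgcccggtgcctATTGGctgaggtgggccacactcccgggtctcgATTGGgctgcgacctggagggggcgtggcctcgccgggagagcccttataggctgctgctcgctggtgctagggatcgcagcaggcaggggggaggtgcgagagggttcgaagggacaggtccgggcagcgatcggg
Eif4e: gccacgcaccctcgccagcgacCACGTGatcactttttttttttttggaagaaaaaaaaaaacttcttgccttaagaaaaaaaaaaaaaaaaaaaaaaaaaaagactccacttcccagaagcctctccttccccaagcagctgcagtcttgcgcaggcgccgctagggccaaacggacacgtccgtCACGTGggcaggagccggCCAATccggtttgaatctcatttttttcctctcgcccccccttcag
Foxo1: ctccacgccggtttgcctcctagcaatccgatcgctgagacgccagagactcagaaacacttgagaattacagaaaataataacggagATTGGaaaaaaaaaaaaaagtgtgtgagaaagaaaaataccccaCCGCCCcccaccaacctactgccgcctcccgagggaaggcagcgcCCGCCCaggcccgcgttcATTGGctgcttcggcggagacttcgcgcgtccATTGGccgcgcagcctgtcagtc
Irs2: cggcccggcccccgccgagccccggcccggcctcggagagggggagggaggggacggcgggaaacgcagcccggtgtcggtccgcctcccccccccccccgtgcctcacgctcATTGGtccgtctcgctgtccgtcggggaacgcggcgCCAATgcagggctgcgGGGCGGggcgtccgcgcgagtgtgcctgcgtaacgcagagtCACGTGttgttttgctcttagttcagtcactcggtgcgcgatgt

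The *Igf1* window holds 1 CCAAT box and none of the other motifs. The *Ddit4* window holds 1 GC box and 2 CCAAT boxes. The *Eif4e* window holds 2 E-boxes and 1 CCAAT box, and a second *Eif4e* start, with its window at chr3:138525941-138526190, holds none of the 4 motifs. The *Foxo1* window holds 2 GC boxes and 3 CCAAT boxes. The *Irs2* window holds 1 E-box, 1 GC box and 2 CCAAT boxes. *Rps6kb2*, which also lay past the line in a comparison, had no matched window and is named only.

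Windows were found for 34 of the 37 genes, 46 windows in all, and were read against 32851 windows of all genes. None was matched for *Eif4ebp1*, *Insr* and *Rps6kb2*. An E-box was in 4 of the 46 windows (8.70%), those of *Eif4e*, *Irs1*, *Irs2* and *Rheb*, against 6.02% of all windows. The FoxO element was in 1 window (2.17%), that of *Akt1*, against 3.17%. The GC box was in 28 windows (60.9%) of 24 genes, against 32.7%. The CCAAT box was in 15 windows (32.6%) of 14 genes, against 33.8%. These are matches of letters, with no test.

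The first comparison asked how the pathway differs between the strains when both received water. In SAMP8 control against SAMR1, *Ddit4*, *Igf1* and *Eif4e* were higher and *Rps6kb2*, which encodes S6 kinase 2, was lower. These were 3 of 37 genes higher (8.11%) and 1 lower (2.70%). Among all probe sets of the array, 6.73% were higher and 6.93% were lower by the same line, and at the brightest probe set per gene 6.44% and 6.14%. The share of genes higher was thus near that of the array, and the share lower was below it. Among probe sets above the array's median signal, where 36 of the 37 genes lie, 11.0% were higher and 9.85% lower. The difference was above 0 for 22 genes, below 0 for 14 and 0 for 1, with a median of 0.03, against a median of 0 over all probe sets. 19 of the 37 differed by less than 0.1. Over the 106 probe sets, 9 were higher (8.49%) and 3 lower (2.83%). After each difference was centred on the median of its bin among 20 bins of signal, 3 genes were higher and 2 lower, *Insr* being added.

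The second comparison asked how the pathway differs in SAMP8 with STEE. In STEE-fed SAMP8 against SAMP8 control, *Foxo1* was higher by 0.21 and *Irs2* was lower by 0.20, and the other 35 genes lay between. That is 1 gene of 37 in each direction (2.70%). Among all probe sets, 3.15% were higher and 2.91% were lower, and at the brightest probe set per gene 3.05% and 2.67%, so that both shares were near the background. For probe sets above the array's median signal the shares were 4.84% and 3.34%. The difference was above 0 for 24 genes and below 0 for 12, with a median of 0.04, and 22 genes differed by less than 0.1. Over the 106 probe sets, 5 were higher and 1 was lower. After centring within bins no gene was higher and 3 were lower, with *Foxo1* lost and *Irs1* and *Pik3r3* added.

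STEE-fed SAMP8 against SAMR1 is the sum of both differences and adds no separate measurement. Here *Ddit4*, *Eif4e*, *Foxo1*, *Igf1* and *Prkaa1* were higher and *Pik3cd* was lower. These 5 genes are 13.5% of the 37, where 8.22% of all probe sets were higher. The 1 lower gene is 2.70%, where 6.84% of all probe sets were lower. Of probe sets above the array's median signal, where 36 of the 37 genes lie, 14.1% were higher and 9.37% lower. The share of genes higher was therefore near that of probe sets of such signal. With the mean over a gene's probe sets in place of the brightest, *Eif4e* (0.17), *Foxo1* (0.16), *Igf1* (0.15) and *Pik3cd* (−0.063) were inside the line. *Pik3r1* (0.275) was added in this comparison. *Ddit4* and *Prkaa1*, measured by 1 probe set each, could not change. The first and second comparisons both use the SAMP8 control mice, with opposite sign, so that an error in that mean would move a gene in opposite directions in them.

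**Figure D1:**
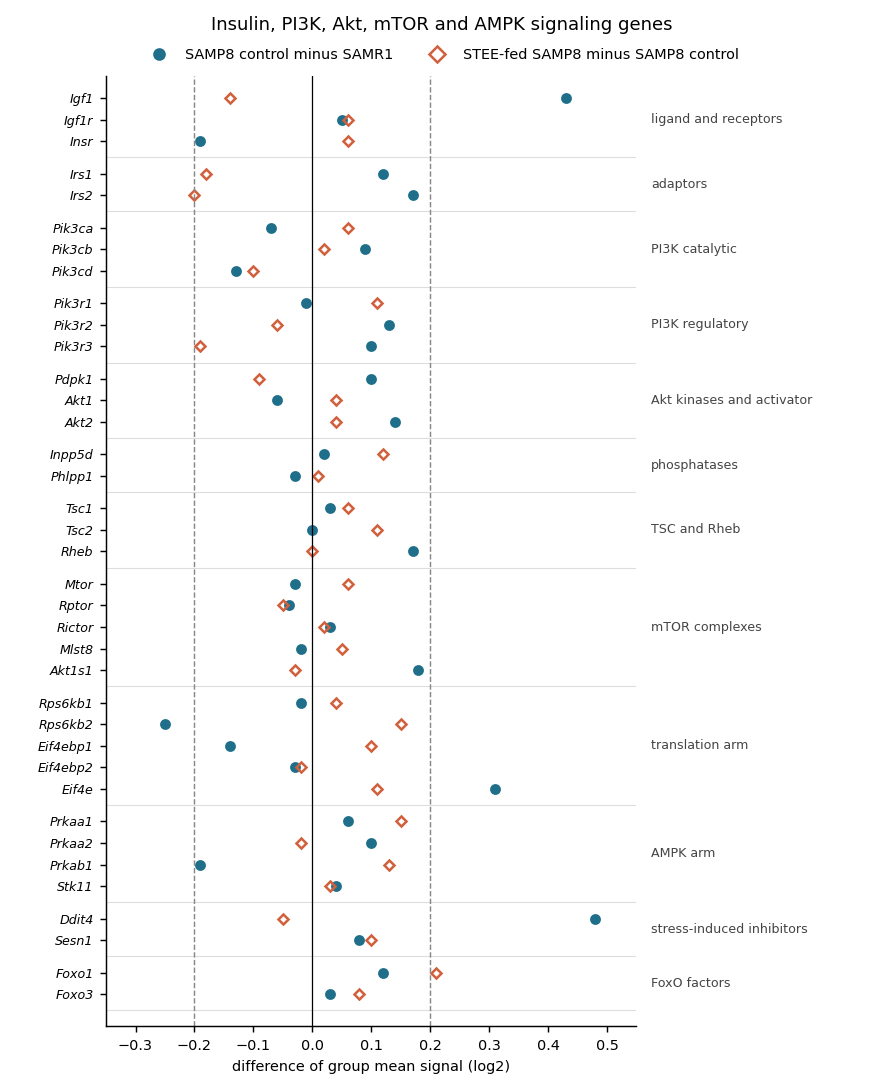
Difference of group mean log2 signal for each of the 37 genes, grouped by role, at its brightest probe set (x axis, log2); filled circles are SAMP8 control minus SAMR1, open diamonds are STEE-fed SAMP8 minus SAMP8 control, and dashed lines stand at 0.2 in either direction. *Ddit4* at 0.48, *Igf1* at 0.43 and *Eif4e* at 0.31 stand to the right in the strain comparison and *Rps6kb2* at −0.25 to the left, while every diamond lies between −0.20 and 0.21; no error bars are drawn because only group means were used.

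A gene's own probe sets gave the only spread at hand, and they are not replicates. Over the 27 genes with several, the median range between the highest and lowest probe set was 0.18 in the strain comparison and 0.14 in the STEE comparison, against 0.14 and 0.11 over the 10574 genes of the array with several. These ranges are wider than the median size of the genes' differences, 0.09 and 0.06. All probe sets lay on the same side of 0 for 9 of the 27 genes in each of these comparisons.

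**Figure D2:**
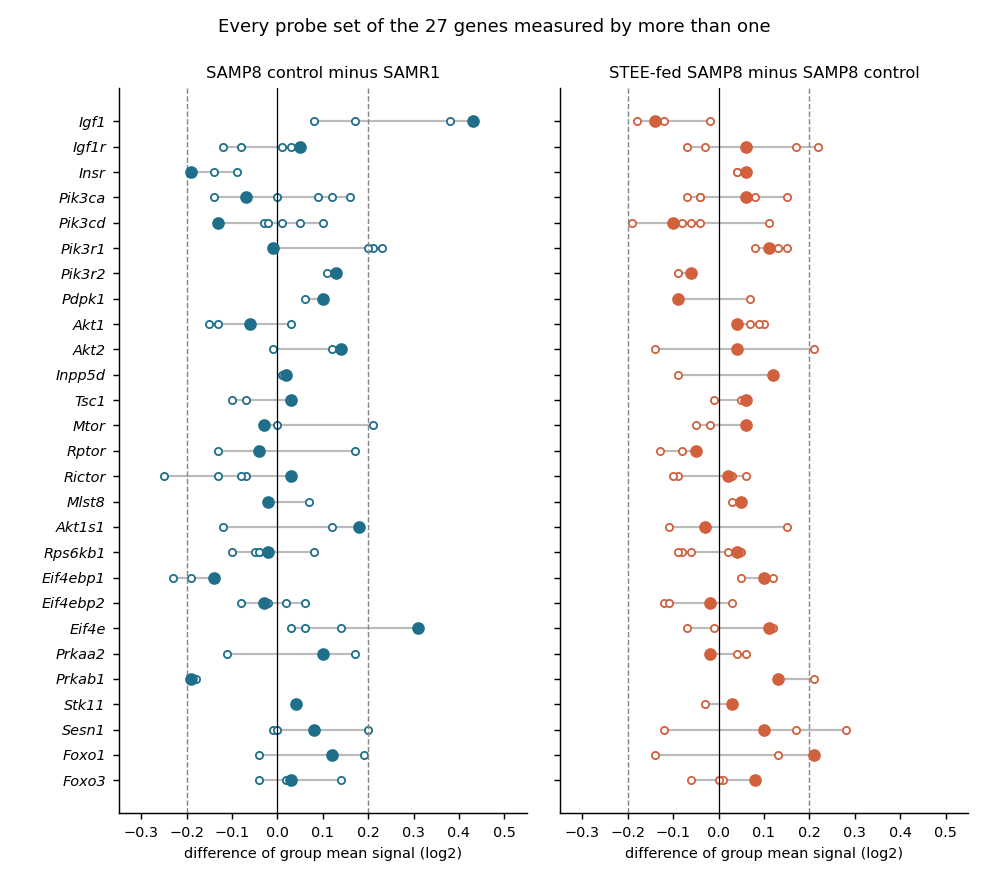
Every probe set of the 27 genes measured by more than one, with the difference of group mean log2 signal on the x axis for the strain comparison and the STEE comparison; the filled point is the brightest probe set of the gene and open points are the others. The 4 *Igf1* probe sets all lie to the right of 0 in the strain comparison and to the left of 0 with STEE, whereas probe sets of *Akt2*, *Foxo1* and *Sesn1* lie on both sides of 0 with STEE.

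Among the ligand and receptors, *Igf1* had group means of 5.50 for SAMR1, 5.93 for SAMP8 control and 5.79 for STEE-fed SAMP8, the order in which means of a gene are listed from here on. It was 1.35-fold higher in SAMP8 control than in SAMR1, a distance upward that 1.36% of gene symbols reached. The remaining *Igf1* probe sets differed by 0.38, 0.17 and 0.08 between the strains, so that all 4 were above 0. With STEE the 4 lay between −0.18 and −0.02, all below 0 and none past the line. *Igf1* is made by several brain cell types, and in bulk cortex more cells of a type and more RNA per cell cannot be told apart.

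*Insr*, the insulin receptor, had means of 6.86, 6.67 and 6.73. Its difference between the strains was −0.19, just inside the line, and its 3 probe sets lay between −0.19 and −0.09. With STEE the same 3 lay between 0.04 and 0.06. The IGF-1 receptor gene *Igf1r* had means of 7.92, 7.97 and 8.03, with differences of 0.05 and 0.06. Its 5 probe sets disagreed with STEE, from −0.07 to 0.22. The ligand and the insulin receptor therefore stood on opposite sides of SAMR1 in SAMP8 control, with the IGF-1 receptor close to it.

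Both adaptor genes were measured by a single probe set. *Irs2* had means of 6.43, 6.60 and 6.40, a difference of 0.17 between the strains and −0.20 with STEE. *Irs1* had means of 6.56, 6.68 and 6.50, with differences of 0.12 and −0.18. For both, SAMP8 control was the group with the highest mean and STEE-fed SAMP8 the group with the lowest, within 0.06 of SAMR1. Downward distances of at least that of *Irs2* with STEE were found in 2.67% of gene symbols, and of at least that of *Irs1* in 3.70%. Both promoters hold an E-box.

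The PI3K catalytic subunits make the lipid signal, and none was past the line in the strain or the STEE comparison. *Pik3ca* had means of 8.06, 7.99 and 8.05, and *Pik3cb* had 5.42, 5.51 and 5.53. *Pik3cd*, the subunit best known from leukocytes, had means of 11.81, 11.68 and 11.58, which made it lower by 0.23 in STEE-fed SAMP8 than in SAMR1. That value rests on 1 of 6 probe sets, near the top of the array's range, where the highest mean of any probe set in SAMR1 was 12.18. The others lay at means of 2.81 to 4.34 and differed by −0.21 to 0.08 in the same comparison. Markers of microglia, the resident immune cells of brain, are given further on.

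Among the regulatory subunits, which hold and stabilise the catalytic ones, *Pik3r1* differed by probe set. At the brightest the means were 8.44, 8.43 and 8.54, a difference of −0.01 between the strains. The others differed by 0.21, 0.23 and 0.20 in the same comparison, all at or past the line. With STEE all 4 were above 0, from 0.08 to 0.15, and STEE-fed SAMP8 exceeded SAMR1 by 0.36, 0.31 and 0.33 at those dimmer probe sets against 0.10 at the brightest. Whether the probe sets read different *Pik3r1* transcripts was not tested. *Pik3r3* had means of 6.73, 6.83 and 6.64 and a STEE difference of −0.19, just inside the line, on a single probe set. *Pik3r2* had means of 5.60, 5.73 and 5.67.

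The kinases below PI3K differed little. *Akt1* had means of 7.01, 6.95 and 6.99, and its 4 probe sets lay from 0.04 to 0.10 with STEE. *Akt2*, the isoform best known from insulin-driven glucose uptake, had means of 6.32, 6.46 and 6.50, with STEE differences from −0.14 to 0.21 over 3 probe sets. *Pdpk1*, which encodes PDK1, had means of 8.54, 8.64 and 8.55. None of these passed the line. The phosphatase genes were likewise inside it, *Inpp5d* (SHIP1, which removes a phosphate from the PI3K product) at 4.48, 4.50 and 4.62, and *Phlpp1* (which dephosphorylates Akt) at 8.01, 7.98 and 7.99.

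No gene of the TSC complex, Rheb or the mTOR complexes passed the line. *Rheb*, the small GTPase that activates mTOR complex 1, had means of 9.84, 10.01 and 10.01, a strain difference of 0.17 and none with STEE. *Tsc1* had 7.02, 7.05 and 7.11, and *Tsc2* had 6.52, 6.52 and 6.63. *Mtor*, the kinase itself, had means of 7.59, 7.56 and 7.62, and *Mlst8*, a subunit of both complexes, had 5.11, 5.09 and 5.14. *Rptor*, which defines complex 1, had 6.62, 6.58 and 6.53, with all 3 probe sets below 0 with STEE, from −0.13 to −0.05. *Rictor*, which defines complex 2, had 7.45, 7.48 and 7.50. These mTOR complex subunits stood within 0.06 of their SAMP8 control mean after STEE. Another *Rictor* probe set, at 6.09, 5.84 and 5.87, was lower by 0.25 in SAMP8 control than in SAMR1. *Akt1s1*, which encodes the mTOR inhibitor PRAS40, had means of 5.73, 5.91 and 5.88, a strain difference of 0.18, but its 3 probe sets ran from −0.12 to 0.18.

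The translation arm held genes on both sides. *Eif4e* had means of 8.32, 8.63 and 8.74, 1.24-fold higher in SAMP8 control than in SAMR1, a distance upward that 2.69% of gene symbols reached. Its dimmer probe sets differed by 0.14, 0.03 and 0.06, so that the sign was shared by all 4 and the size was not. With STEE the 4 lay from −0.07 to 0.12. *Rps6kb2* had means of 4.74, 4.49 and 4.64 on a single probe set, 1.19-fold lower in SAMP8 control, and its difference with STEE was 0.15. *Rps6kb1*, which encodes S6 kinase 1, had 7.89, 7.87 and 7.91 and stood near 0 in both.

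*Eif4ebp1*, which encodes an inhibitor of eIF4E, had means of 4.02, 3.88 and 3.98, and was the 1 gene of the 37 whose signal did not lie above the array's median. Its 3 probe sets differed by −0.23 to −0.14 between the strains and by 0.05 to 0.12 with STEE. *Eif4ebp2*, the form known as the main one of brain, had means of 4.99, 4.96 and 4.94, inside the line in both. At its brightest probe set *Eif4e* was above SAMR1 in both SAMP8 groups. The dim *Eif4ebp1* differed from SAMR1 by −0.14 and −0.04 there, and *Eif4ebp2* by −0.03 and −0.05, all inside the line.

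In the AMPK arm no gene passed the line with STEE or between the strains. *Prkaa1*, a catalytic subunit, had means of 4.49, 4.55 and 4.70, and was higher by 0.21 in STEE-fed SAMP8 than in SAMR1 on a single probe set. *Prkab1*, a regulatory subunit, had 5.70, 5.51 and 5.64, and its 2 probe sets differed by −0.19 and −0.18 between the strains and by 0.13 and 0.21 with STEE. *Prkaa2*, the other catalytic subunit, had 7.33, 7.43 and 7.41. *Stk11*, which encodes the AMPK-activating kinase LKB1, had 6.53, 6.57 and 6.60.

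The stress-induced inhibitors of mTOR complex 1 held the largest strain difference among the 37. *Ddit4* had means of 6.70, 7.18 and 7.13 on its single probe set. It was 1.39-fold higher in SAMP8 control than in SAMR1, a distance upward that 1.10% of gene symbols reached, and with STEE it differed by −0.05. Both SAMP8 groups therefore stood above SAMR1 and close to each other. *Sesn1* had means of 8.01, 8.09 and 8.19, and its other probe sets differed by 0.28, 0.17 and −0.12 with STEE.

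Of the FoxO factors, *Foxo1* had means of 6.75, 6.87 and 7.08 at its brightest probe set, and was 1.16-fold higher with STEE. Upward distances at least as large were found in 2.61% of gene symbols. Its other probe sets, at means of 5.95, 5.91 and 6.04 and of 4.97, 5.16 and 5.02, differed by 0.13 and −0.14 with STEE, so that they did not share a direction. *Foxo3* had means of 7.42, 7.45 and 7.53, with a STEE difference of 0.08.

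**Figure D3:**
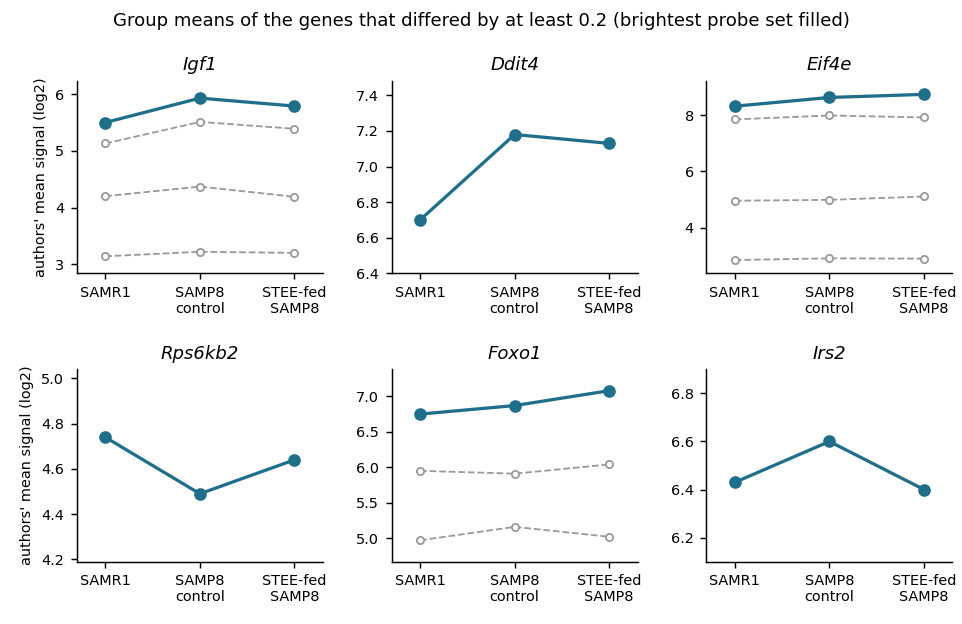
Group mean log2 signal (y axis, each panel on its own range) in SAMR1, SAMP8 control and STEE-fed SAMP8 for the 6 genes at or past 0.2 in the strain or the STEE comparison; the filled line is the brightest probe set and dashed lines are the gene's other probe sets, with no error bars because each point is a deposited mean of 2 mice. *Ddit4* stands at 6.70 in SAMR1 and at 7.18 and 7.13 in the SAMP8 groups, while *Irs2* is highest in SAMP8 control at 6.60.

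Markers of other cells and of dissection differed between the groups beside these genes. Of all probe sets, 6.73% were higher and 6.93% lower between the strains by the 0.2 line. SAMP8 control exceeded SAMR1 in all 7 genes typical of striatum (differences of 0.32 to 0.89). The log2 of their summed signal was 10.49 for SAMR1, 11.18 for SAMP8 control and 11.20 for STEE-fed SAMP8. Of 6 choroid plexus genes 3 were lower in SAMP8 control, among them *Ttr* (transthyretin) at 10.20, 8.24 and 9.33, and the log2 sums, made up mostly of *Ttr*, were 10.29, 8.54 and 9.48. The others counted lower, *Otx2* and *Kcnj13*, lay below the array's median signal, and 2 of the 6 lay above it. Of 6 oligodendrocyte genes 4 were lower (log2 sums 13.31, 13.12 and 13.08), and of 5 interneuron genes 3 were higher (11.59, 11.83 and 11.79). *Ddit4*, *Eif4e* and *Igf1* had both SAMP8 groups above SAMR1, as had the striatum genes. These 3 were picked for high values in SAMP8 control, which fixed in advance that it stood above SAMR1. The shared order is therefore no sign of a link. The part of any of these marker lists in the strain values of the 37 genes was not tested.

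Of 8 microglial markers, none was higher and 1 was lower in SAMP8 control, with log2 sums of 10.05, 9.97 and 9.97. With STEE none of the 8 passed the line. In STEE-fed SAMP8 against SAMR1, 3 of the 8 were higher (*Aif1* by 0.27, *C1qb* and *C1qc* by 0.23) and *Csf1r* differed by −0.23. Of all probe sets 8.22% were higher and 6.84% lower in that comparison. It is also where *Pik3cd* was lower at the brightest of its 6 probe sets, which did not share a direction. The part of these in the *Pik3cd* value was not tested. The 7 cortical neuron genes, all above the array's median signal, had log2 sums of 12.68, 12.76 and 12.82. Of 5 astrocyte genes 1 was higher and 1 lower in SAMP8 control (log2 sums 11.17, 11.03 and 11.00), of 4 endothelial genes 1 was lower (8.37, 8.22 and 8.27), and blood genes, 5 on 3 probe sets, did not pass the line (10.95, 10.92 and 10.94).

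With STEE the largest list differences were elsewhere. All 8 immediate-early genes, which neurons switch on with activity, were lower than in SAMP8 control, by −1.23 to −0.26, and their log2 sums were 11.41, 11.73 and 11.06. *Ttr* and the dim *Kcnj13* of the choroid plexus list were higher, by 1.09 and 0.22, as was *Tbr1* of the cortical neurons by 0.29, and *Gfap* of the astrocytes differed by −0.22. *Irs1*, *Irs2* and *Pik3r3*, the pathway genes nearest the line in the downward direction, had their highest mean in SAMP8 control. The sum of the immediate-early list was also highest there. These genes were picked for low values with STEE, which fixed in advance that SAMP8 control stood above STEE-fed SAMP8. The shared order is therefore no sign of a link. The part of that list in their values was not tested.

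The remaining genes of the pathway were taken from a list of 88, of which 84 were measured; *Eif4ebp3*, *Foxo6*, *Pik3c2b* and *Rragb* were not analysed here. Between the strains 8 were higher (9.52%) and 6 lower (7.14%), with a median of −0.005, against 6.73% and 6.93% of all probe sets. With STEE 2 were higher (2.38%) and none lower, with a median of 0.005, against 3.15% and 2.91%. Between STEE-fed SAMP8 and SAMR1, 11 were higher (13.1%) and 7 lower (8.33%), against 8.22% and 6.84%. Of probe sets above the array's median signal, 14.1% and 9.37% were past the line there. After centring within 20 bins of signal the last split was 8 and 8.

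*Igfbp6*, which binds IGF-2 with preference, had means of 6.69, 7.21 and 7.26, higher by 0.52 in SAMP8 control than in SAMR1. *Pik3c3*, the class III PI3K of autophagy and endosomes, had 6.48, 7.0 and 7.08, also higher by 0.52. Both were measured by a single probe set and stayed in STEE-fed SAMP8 near their SAMP8 control mean. *Igf2*, a growth factor made by meninges and choroid plexus, had 6.73, 6.26 and 6.45, lower by 0.47 between the strains. It shares the order of groups with *Ttr*, and their relation was not tested. *Deptor*, an inhibitor within the mTOR complexes, had 6.88, 6.42 and 6.48, with a difference of −0.46, although another of its 6 probe sets differed by 0.29 and their median was 0.005. *Irs4*, an adaptor, had 3.44, 3.0 and 2.93, below the array's median signal.

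*Prr5l*, a partner of mTOR complex 2, had means of 5.29, 4.94 and 4.86 with a difference of −0.43 between STEE-fed SAMP8 and SAMR1. *Strada*, the pseudokinase partner of LKB1, had 4.89, 4.60 and 4.97, a strain difference of −0.29 and the largest STEE difference of the list, 0.37. Its other 3 probe sets differed by −0.22, −0.14 and 0.04 with STEE, so that the direction was not shared and the median of the 4 was −0.05. *Prkag2*, an AMPK subunit that binds nucleotides, had 6.62, 6.64 and 6.84, a STEE difference of 0.20.

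**Figure D4:**
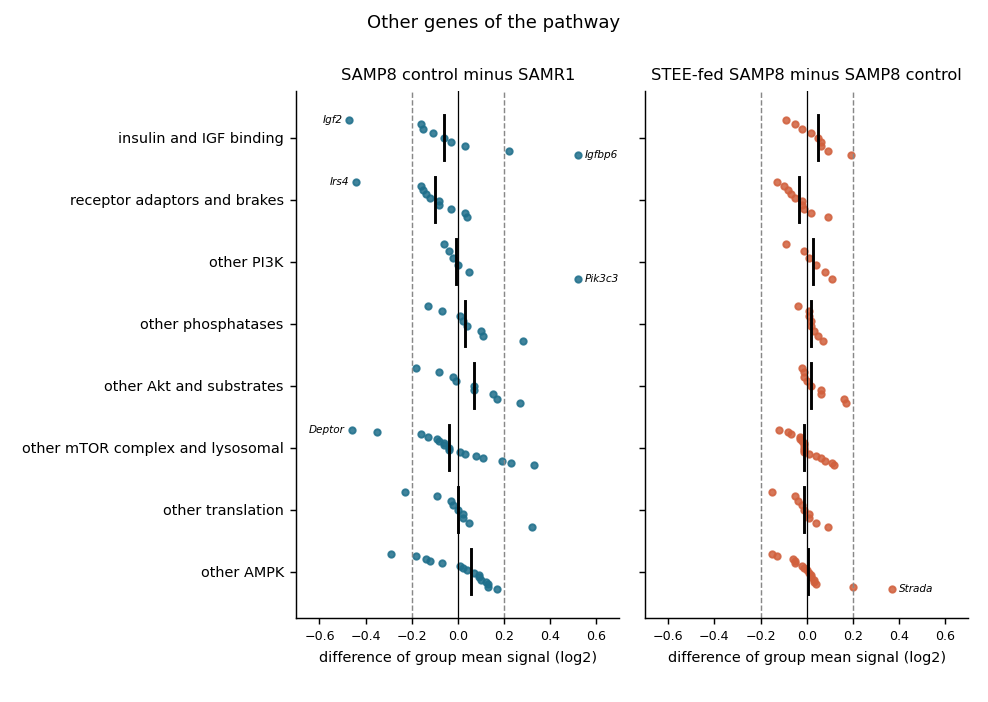
Difference of group mean log2 signal (x axis) for 84 other genes of the pathway in 8 groups by role; each point is a gene at its brightest probe set, black ticks are group medians and dashed lines stand at 0.2 in either direction. The strain comparison (left) reaches from −0.47 for *Igf2* to 0.52 for *Igfbp6* and *Pik3c3*, and with STEE (right) *Strada* at 0.37 and *Prkag2* at 0.20 are the points at or past the line.

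Genes known as FoxO targets were read as a list of 19, of which *Insr*, *Irs2*, *Pik3ca*, *Rictor* and *Sesn1* are also among the 37. Between the strains 5 were higher (26.3%) and 1 lower (5.26%), with a median of 0.11, against 6.73% and 6.93% of all probe sets. All 19 lay above the array's median signal, where 11.0% were higher and 9.85% lower. The cell cycle and stress gene *Gadd45a* had means of 4.12, 4.50 and 4.10, and the pseudokinase gene *Trib1* had 4.0, 4.34 and 4.24. *Pdk4*, which restrains entry of pyruvate into the mitochondrial cycle, had 4.87, 5.16 and 5.07, *Ccng2* (cyclin G2) had 8.01, 8.28 and 8.22, and *Cat* (catalase) was the lower one, at 7.41, 7.15 and 7.28. With STEE none was higher and 2 were lower (10.5%), *Gadd45a* by −0.40 and *Irs2* by −0.20, with a median of −0.03. *Irs2* lies on the line within rounding and was already named as lower among the 37, so that it adds nothing to the share. The shares of all probe sets with STEE were 3.15% higher and 2.91% lower, and above the array's median signal 4.84% and 3.34%. *Foxo1* itself was higher in the same comparison at its brightest probe set only. Its probe sets did not share a direction, and the relation of factor and targets was not tested.

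*Ddit4* is also known as a glucocorticoid-induced gene, and a list of 14 such genes that contains it was read beside it. Between the strains 4 were higher (28.6%) and none lower, with a median of 0.12, against 6.73% and 6.93% of all probe sets. All 14 lay above the array's median signal, where 11.0% were higher and 9.85% lower. *Ddit4* is 1 of the 4 and was already known to be higher, so that it adds nothing to the share. *Tsc22d3*, at 0.20, lies on the line within rounding. The list was chosen with earlier results of these data known, so that its shares are description only. *Cdkn1a*, which encodes the cell cycle inhibitor p21, had means of 6.09, 6.68 and 6.71, with both SAMP8 groups above SAMR1 as for *Ddit4*. Its dimmer probe set had 4.61, 5.34 and 5.62 and was higher by 0.28 with STEE, which *Ddit4* was not. With STEE 5 were higher (35.7%) and 2 lower (14.3%), with a median of 0.115, against 3.15% and 2.91% of all probe sets. Above the array's median signal the shares were 4.84% and 3.34%. *Ddit4* was not past the line with STEE. *Fkbp5*, a chaperone of the glucocorticoid receptor, had 6.51, 6.61 and 7.07, and *Zbtb16*, a transcription factor, had 7.31, 7.47 and 7.94. *Sult1a1*, a sulfotransferase, had 5.05, 5.04 and 5.60. *Tsc22d3*, which encodes GILZ, had 7.95, 8.15 and 8.47, *Mt2* (metallothionein) had 9.12, 8.93 and 9.29, and the clock gene *Per1* was lower at 7.23, 7.17 and 6.83. Between STEE-fed SAMP8 and SAMR1, 9 of the 14 were higher (64.3%) and 1 lower (7.14%), against 8.22% and 6.84% of all probe sets. Above the array's median signal the shares were 14.1% and 9.37%, and *Ddit4* is again 1 of the 9.

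**Figure D5:**
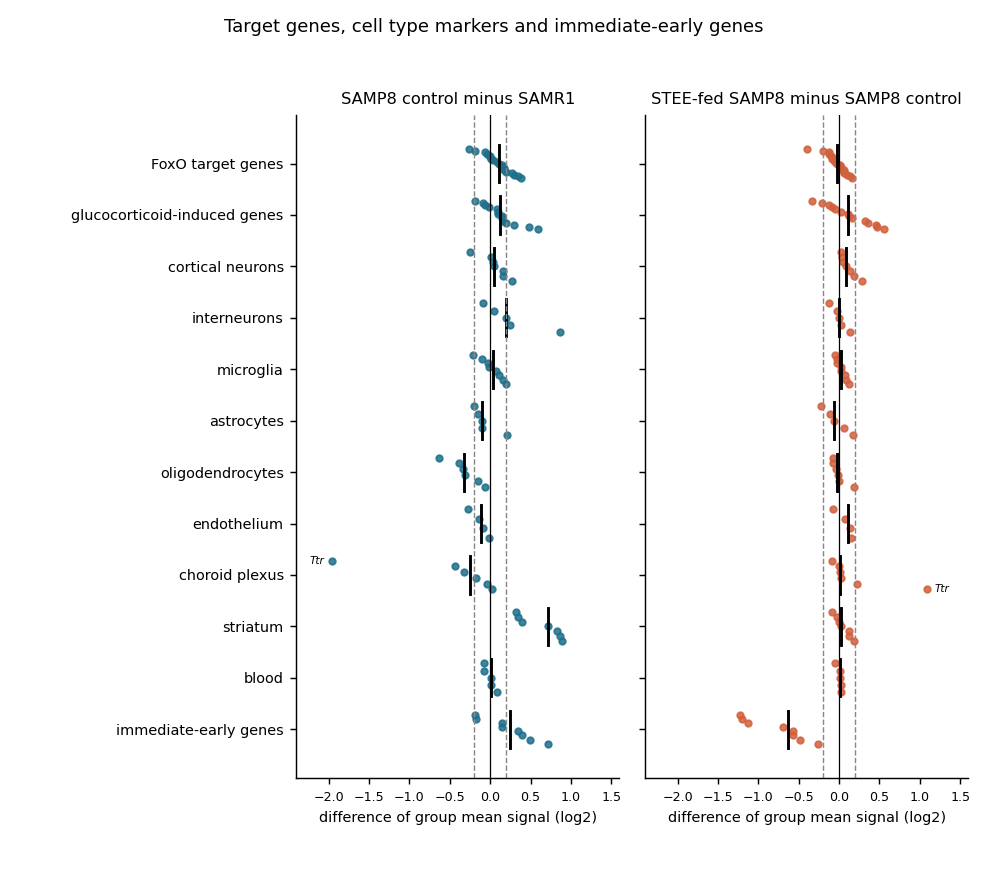
Difference of group mean log2 signal (x axis) for FoxO target genes, glucocorticoid-induced genes, cell type markers and immediate-early genes; each point is a gene, black ticks are list medians and dashed lines stand at 0.2 in either direction. The striatum genes lie at 0.32 to 0.89 in the strain comparison (left) and near 0 with STEE (right), while the immediate-early genes lie at −1.23 to −0.26 with STEE.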

How the data were processed

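The authors scanned the arrays, summarised probe intensities to log2 signal by RMA in Affymetrix Expression Console, and made their group comparisons with Transcriptome Analysis Console. The deposited log2 values are bi-weight averages per group, rounded to 2 decimals, in 2 tables that share the SAMP8 control column. Their fold change and p-value columns hold the authors' own comparisons and were not used. The array annotation's genome build is not given in the sources used here.

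Differences of group means were computed with Python 3.11.15, pandas 2.3.3 and numpy 2.4.6, and drawn with matplotlib 3.10.9. Symbols were split where a probe set had several, and each gene was read at the probe set with the highest mean of the 3 groups. A difference of at least 0.2 was counted, and the share of all 45077 probe sets so counted is the background. The genes and lists were chosen with earlier results of these data known. All 37 genes are named, with at most the 5 largest differences per comparison in each other list of the pathway or its targets, and markers past the line or defining a tissue. *Drd1* was matched as *Drd1a* through the RefSeq table, which also gave the promoters. The 0.2 line was run on simulated group means without noise, which checks that counting step alone and not the choice of probe set, the lists or the centring. The 9 alternatives are given below; 2 arrays per group limit precision.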

Additional observations from a re-analysis of the deposited data

How the results depend on the processing

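9 alternatives were run, which for the marker and target lists were added after seeing the data. None of the 37 genes past the 0.2 line changed sign. Of the other genes named by the rule, the sign turned for *Deptor* between the strains (−0.46, 0.005 with the median over its probe sets) and in STEE-fed SAMP8 against SAMR1 (−0.40, 0.0067 with the mean and 0.065 with the median), and with the median for *Strada* between the strains (−0.29, 0.025) and with STEE (0.37, −0.05). No paired analysis was possible because the columns hold group means only, and for the same reason leaving out each replicate was not run. Of the 37 genes, 4 were counted between the strains and 18 (13 higher, 5 lower) at a line of 0.1, past which 18.8% of all probe sets were higher and 21.1% lower. With STEE 2 were counted, 1 with the mean over a gene's probe sets, 1 with the median, 1 without probe sets marked _s_, _x_ or _a_ (which may read several transcripts or genes), 15 (10 higher, 5 lower) at 0.1, where the array had 15.2% in each direction, and 0 at 0.3. Between STEE-fed SAMP8 and SAMR1 6 were counted, 3 with the mean (*Ddit4*, *Prkaa1* and *Pik3r1*), 18 (15 higher, 3 lower) at 0.1, where the array had 19.4% and 22.3%, and 3 at 0.3. Of the 84 other pathway genes, 14 were counted between the strains, 8 with the mean, 8 with the median, 39 at 0.1 and 8 at 0.3. With STEE 2 were counted, 0 with the mean, 0 with the median, 4 without the marked probe sets, 14 at 0.1, 1 at 0.3 and 1 after centring within 20 bins of signal. Between STEE-fed SAMP8 and SAMR1 18 were counted, 8 with the mean, 9 with the median, 42 at 0.1 and 9 at 0.3. For the target and marker lists the strain count of 36 was 64 at 0.1 and 23 at 0.3, and the STEE count of 21 was 44 at 0.1.

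Centring within bins moved the splits of the 37 genes from 3 higher and 1 lower to 3 and 2 between the strains, with *Insr* added, and from 1 and 1 to 0 and 3 with STEE, where *Foxo1* was lost and *Irs1* and *Pik3r3* were added. It moved that of the other pathway genes from 11 and 7 to 8 and 8 in STEE-fed SAMP8 against SAMR1. *Igf1* between the strains (0.265 to 0.44) stayed past the 0.2 line under each alternative way of reading the gene. *Ddit4* between the strains (0.46 to 0.48) and *Irs2* with STEE (−0.22 to −0.20) did so too. Each of these 2 genes has a single probe set, so that only centring could change its value. *Irs2* lies on the line within rounding. *Eif4e* between the strains was 0.10 with the median over its probe sets, and *Foxo1* with STEE was 0.067 with the mean. The cause of these shifts was not tested.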
